A study of Mus musculus with 5 samples.

Results

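The Rab GTPases are small proteins that mark the membranes of the cell and direct vesicle traffic between them. Members were the rows of the deposited expression table whose symbol is Rab followed by a number, an optional letter and an optional digit. This gave 57 genes out of 34240 rows. Values were compared between AML cells (2 libraries) and normal myeloid cells (3 libraries) of BALB/c mice aged 10 to 12 months. The AML is an acute myeloid leukaemia of mice driven by CNTRL-FGFR1, which joins centriolin to the kinase FGFR1, and its cells were sorted as Mac+Gr1+B220+ with bone marrow and spleen given as the tissue. Normal cells were sorted as Gr1+Mac1+ with bone marrow as the tissue. The labels used here do not say how the fusion was introduced, nor whether the mice were given a transplant. The effects of the fusion, the added B220 sort and the spleen cells cannot be told apart. Whether each library is a different mouse is not stated in the labels. A p-value here therefore reflects only how much these samples vary, which may be technical.

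A Rab protein is carried to its membrane with a lipid tail, switched on by an exchange factor (GEF), recruits effectors that move, tether or fuse the vesicle, and is switched off by a GTPase-activating protein (GAP). Different Rabs mark different steps: Rab1, Rab2 and Rab6 the endoplasmic reticulum (ER) and Golgi, Rab5 the early endosome, Rab7 and Rab9 the late endosome, Rab4 and Rab11 the recycling endosome, and Rab27 and Rab3 the secretory granule. Myeloid cells of the neutrophil line store enzymes and antimicrobial proteins in granules, and Rab27a is known for the release of those granules.

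Levels are the deposited values, read as RPKM (reads scaled to exon length and to the mapped reads of the library), a unit inferred from the values since no label or header names it. RPKM are scaled to length, so levels of different genes can be compared. A difference is the log2 fold change, AML minus normal, on the log2(RPKM + 1) scale, which understates changes of low genes. A gene was tested if it reached 1 RPKM in at least 2 libraries, and it passed at a limma adjusted p under 0.05 (Benjamini-Hochberg over all 10166 tested genes).

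The summed markers show how the sorted cells differed. Neutrophil markers (12 genes, S100a8 and S100a9 the highest) summed to 173762 to 240578 RPKM in AML cells and 194306 to 304980 RPKM in normal cells, with 7 lower and none higher. Granulocyte progenitor markers summed to 10357 to 11343 RPKM in AML cells and 303 to 449 RPKM in normal cells, all 6 of 6 higher. Monocyte markers summed to 35.4 to 37.8 RPKM in AML cells and 521 to 876 RPKM in normal cells, all 8 of 8 lower. B cell markers (7 genes) were low in both, at 10.2 to 12.7 RPKM in AML cells and 11.1 to 17.2 RPKM in normal cells. T and NK cell markers (9 genes, 3 tested, Cd3e and Cd3g higher and Cd3d lower) summed to 338 to 341 RPKM in AML cells, with Cd8a listed at 0, and 42.9 to 48.9 RPKM in normal cells. Most of the AML sum was Cd3e (233 and 205 RPKM) and Cd3g (89.5 and 114 RPKM). Cd2, Lck, Cd4, Cd8a, Klrb1c and Ncr1 were under the filter, at or below 0.9 RPKM in every library. Dendritic cell markers (6 genes, 4 tested, Flt3 higher) summed to 203 to 207 RPKM in AML cells, with Siglech and Ccr9 listed at 0, and 23.6 to 46.3 RPKM in normal cells. Flt3 alone had 187 and 176 RPKM in AML cells, so the sum mostly shows this gene. The other tested markers, H2-Ab1, Cd209a and Bst2, did not pass. AML cells had 108 and 217 RPKM of eosinophil and 114 and 125 RPKM of erythroid markers. Of 5 tested eosinophil markers, Ear2 was lower and Siglec5 higher. Prg2, which did not pass, made up most of the eosinophil sum in every library but normal library 3. No erythroid marker passed. Normal library 3 stood apart from the other normal libraries: its eosinophil markers summed to 51.9 RPKM against 897 and 941, and its erythroid markers to 101 RPKM against 1501 and 963. Basophil and mast cell markers summed to 15.6 to 33.9 RPKM in AML cells, with Tpsb2 listed at 0, and 21 to 37.5 RPKM in normal cells. The members of this list did not move alike. Prss34 was lower, at 0.7 and 0.8 RPKM in AML cells against 11.8, 15 and 11.4 RPKM in normal cells. Mcpt8 made up most of the AML sum, at 12.1 and 30.4 RPKM against 9.41, 13.2 and 6.01 RPKM in normal cells. Neither Mcpt8 nor Cpa3, the other tested markers, passed. Fewer cells of a type and less RNA per cell cannot be told apart in bulk samples. The part that these cell types have in the results on Rab genes was not tested.

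Of the 57 Rab genes, 43 were tested. Of these, 6 were higher in AML cells (14%, against 19.3% of all tested genes), 9 were lower (20.9%, against 11.8% of all tested genes) and 28 did not pass. The share that passed in either direction was 34.9% of the Rab genes and 31.0% of all tested genes. The higher genes were Rab44, Rab38, Rab25, Rab13, Rab4a and Rab9. The lower genes were Rab8b, Rab23, Rab15, Rab37, Rab10, Rab22a, Rab19, Rab11a and Rab1. Of these, Rab38, Rab25, Rab13 and Rab4a reached 1 RPKM only in AML libraries, and Rab23, Rab15 and Rab19 only in normal libraries. They were tested only because 1 group was high. Their direction and lack of overlap follow in part from the filter and are no separate support. The median difference was -0.41 over the 43 Rab genes and 0.12 over all tested genes. Both AML libraries lay below all 3 normal libraries for 19 Rab genes (44.2%, against 22.1% of all tested genes), and above them for 8 (18.6%, against 34.8%). The difference was below 0 for 27 of 43 (62.8%, against 44.1%). Summed over the family, Rab RNA was 1503 and 1331 RPKM in AML cells and 1585, 1642 and 1626 RPKM in normal cells. That is 0.287% and 0.208% of the summed RPKM of AML cells and 0.336%, 0.310% and 0.264% of that of normal cells. These shares overlapped, since AML library 1 lay above normal library 3. They also depend on a few very high genes in the sum. S100a8 alone had 55648 and 92955 RPKM in AML cells, against 71205, 92329 and 112455 RPKM in normal cells. Exons of 10 tested members overlap those of another gene, and no source says whether counting used strand, so reads of the pairs cannot be told apart. Besides those named below these are Rab11b, Rab20, Rab2b, Rab3a, Rab40c and Rab4b.

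**Figure D1:**
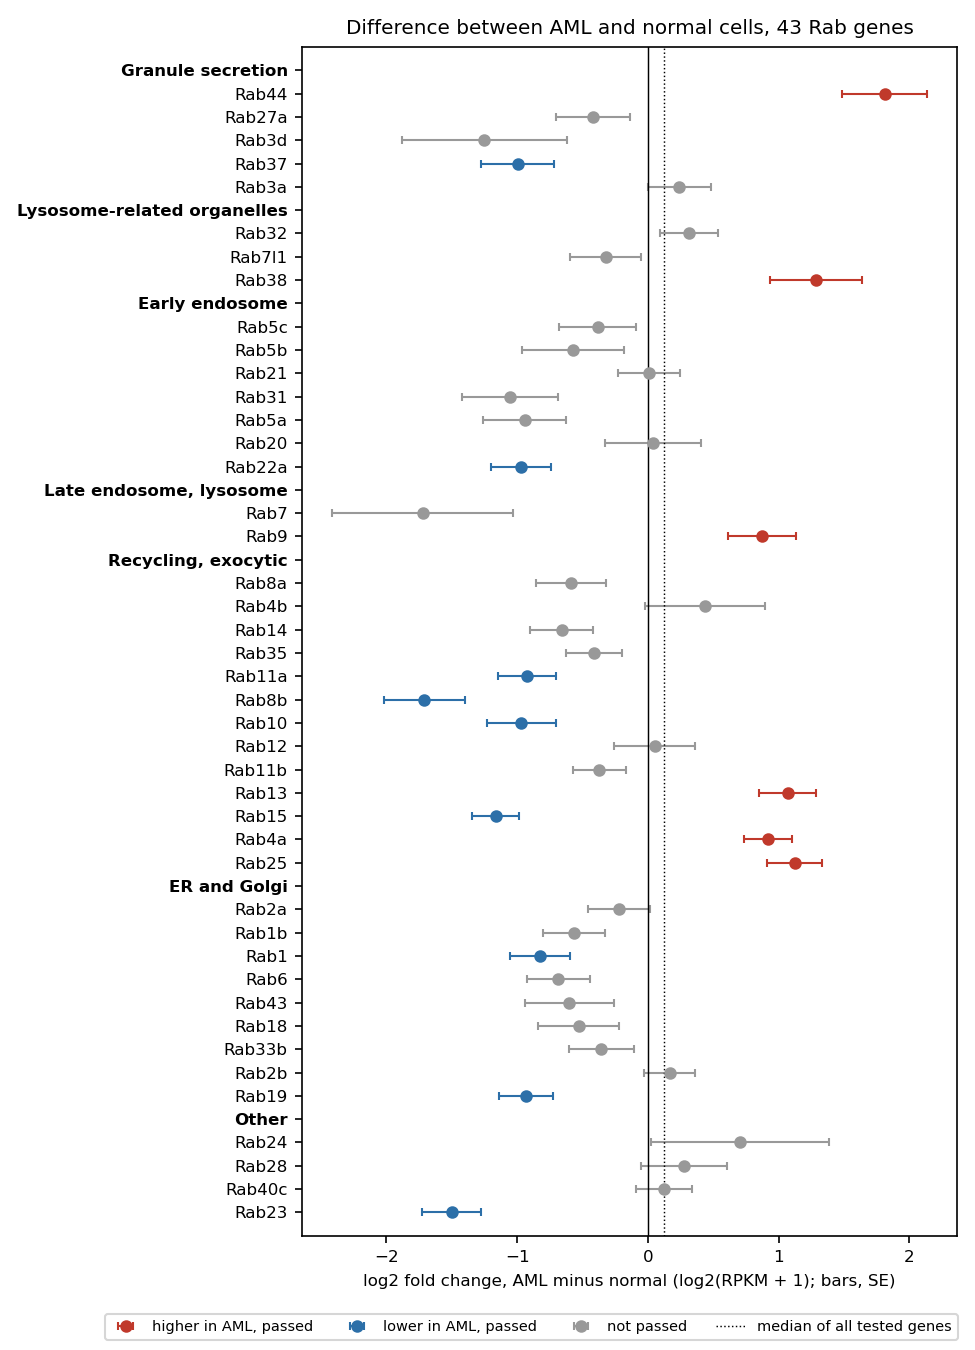
Log2 fold change of each tested Rab gene (horizontal axis, AML minus normal on the log2(RPKM + 1) scale), grouped by the membrane it is known for; points are limma estimates from 2 AML and 3 normal libraries, bars are the SE, and the dotted line is the median of all tested genes (0.12). The points of 27 of the 43 genes lie left of 0, and Rab44 lies farthest right at 1.81.

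Whether a gene passed often depended on a single library, among the Rab genes and among all tested genes. Leaving out an AML library leaves 1 in that group, whose spread cannot then be measured, and calls were lost over the whole table too. Leaving out AML library 2, none of the 15 genes that had passed did so: 11 had limma adjusted p between 0.060 and 0.24, and 4 fell under the filter. The median difference was then -0.34 over the 39 Rab genes still tested and 0.18 over all tested genes. Leaving out AML library 1, 5 of the 15 passed (Rab44, Rab8b, Rab23, Rab10 and Rab37). Leaving out normal library 1 or 2, 10 and 7 passed, and without normal library 3, 14 passed and 7 others joined them. Over all tested genes, 1959 were higher and 1196 lower with all libraries. These counts were 1139 and 797 without normal library 1, and 955 and 640 without normal library 2. Without normal library 3 they were 2757 and 2142. Rab44, Rab8b and Rab23 each passed in 4 of the 5 fits with a library left out. The differences of Rab44 then ran between 1.43 and 2.19, those of Rab8b between -2.03 and -1.39, those of Rab23 between -1.61 and -1.33 and those of Rab11a between -1.01 and -0.88. Rab15 had -1.17 without either AML library. The values without a library stand with each group of genes below.

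To set the changed genes beside their regulatory sequence, promoters are shown for the 2 largest passed rises and 2 largest passed falls among genes with a mean of at least 10 RPKM. The genes were Rab44, Rab9, Rab8b and Rab10, of which Rab9, Rab8b and Rab10 are printed. The sequences cover 250 bases before to 50 bases after the annotated start, 5′ to 3′ on the gene's own strand, from RefSeq on GRCm38.p6. They are chrX:166479818-166480117 for Rab9, chr9:66919656-66919955 for Rab8b and chr12:3309920-3310219 for Rab10, all on the minus strand. Capitals mark GGGCGG, the GC box bound by SP factors, or its reverse complement.
Rab9: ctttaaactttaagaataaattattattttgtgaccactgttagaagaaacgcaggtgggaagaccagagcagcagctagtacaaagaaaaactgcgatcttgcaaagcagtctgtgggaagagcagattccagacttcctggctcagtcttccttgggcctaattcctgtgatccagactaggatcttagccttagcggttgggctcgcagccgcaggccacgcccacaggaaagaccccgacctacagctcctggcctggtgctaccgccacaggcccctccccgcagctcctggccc
Rab8b: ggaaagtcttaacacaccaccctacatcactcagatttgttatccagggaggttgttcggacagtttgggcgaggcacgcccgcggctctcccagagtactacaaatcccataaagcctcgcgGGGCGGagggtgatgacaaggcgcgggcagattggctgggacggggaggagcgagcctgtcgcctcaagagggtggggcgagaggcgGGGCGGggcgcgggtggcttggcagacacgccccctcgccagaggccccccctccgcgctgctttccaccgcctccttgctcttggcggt
Rab10: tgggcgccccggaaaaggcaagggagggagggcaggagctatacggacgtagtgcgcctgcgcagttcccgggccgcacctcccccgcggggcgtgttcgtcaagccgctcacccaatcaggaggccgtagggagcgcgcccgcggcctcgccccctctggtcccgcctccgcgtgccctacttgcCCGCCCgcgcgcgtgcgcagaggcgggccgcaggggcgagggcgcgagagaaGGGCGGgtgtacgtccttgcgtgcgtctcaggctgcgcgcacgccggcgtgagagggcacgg
The GC box occurred at -127 and -40 from the start in Rab8b, and at -12 and, on the other strand, at -64 in Rab10. It was not found in the Rab9 window. Of 32851 promoters in the table, 35.7% held GGGCGG on either strand, as did 39 of the 56 promoters listed for 44 Rab genes. The ETS motif CCGGAAG (8.86% of all promoters, 5 Rab promoters), the PU.1 motif GAGGAAGT (3.20%, 2), the C/EBP motif TTGCNNAA (10.8%, 3) and the E-box CACGTG (7.15%, 6) were searched on both strands and were found in none of the 3 windows shown. These are matches of letters, not binding sites.

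Among the Rabs of granule secretion, Rab44 was higher in AML cells, Rab37 was lower, and Rab27a, the main granule Rab of neutrophils, did not pass. Rab44 (chr17:29272001-29285925, mm9, plus strand) is an unusually large Rab known from mouse mast cells for granule release: its coding sequence has 2178 bases, where those of the other members have 585 to 876. Rab44 had 160 and 274 RPKM in AML cells, against 52.5, 51.4 and 76.4 RPKM in normal cells. Both AML libraries lay above all normal ones, 3.61-fold in the means. The difference was 1.81 ± 0.33 (SE, limma adjusted p = 0.0079). By mean level Rab44 ranked first among the Rab genes in AML cells and 11th in normal cells. Rab37, known from mast cells for secretory granules, had 5.8 and 3.2 RPKM in AML cells, against 10, 11 and 8.2 RPKM in normal cells. The groups did not overlap, and the difference was -1.0 ± 0.28 (limma adjusted p = 0.037). Without AML library 2 neither passed (limma adjusted p 0.073 for Rab44 and 0.24 for Rab37), and Rab37 did not pass without normal library 1 (0.098) or 2 (0.13), nor with columns scaled to the same sum or with no filter.

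Rab27a had 109 and 65.0 RPKM in AML cells, against 116, 117 and 107 RPKM in normal cells. AML library 1 lay within the range of the normal libraries and AML library 2 lay below it, and the difference of -0.42 ± 0.28 did not pass (limma adjusted p = 0.29). Its paralogue Rab27b, known from platelets and mast cells, was listed at 0 in both AML libraries, and at 0.2, 0.2 and 0 RPKM in normal libraries 1 to 3. Rab3d, a Rab of exocrine and mast cell granules, had 25.5 and 5.6 RPKM in AML cells, against 45.4, 35.4 and 17.5 RPKM in normal cells. The spread inside each group was wide and the groups overlapped (-1.25 ± 0.63, limma adjusted p = 0.17). Rab3d passed at a limma adjusted p of 0.039 when normal library 3 was left out. Rab3a, the Rab of synaptic vesicles, had 2.12 and 3.10 RPKM in AML cells, against 1.94, 1.60 and 2.65 RPKM in normal cells, and did not pass. Rab26, Rab3b and Rab3c stayed at or below 0.08 RPKM in every library.

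**Figure D2:**
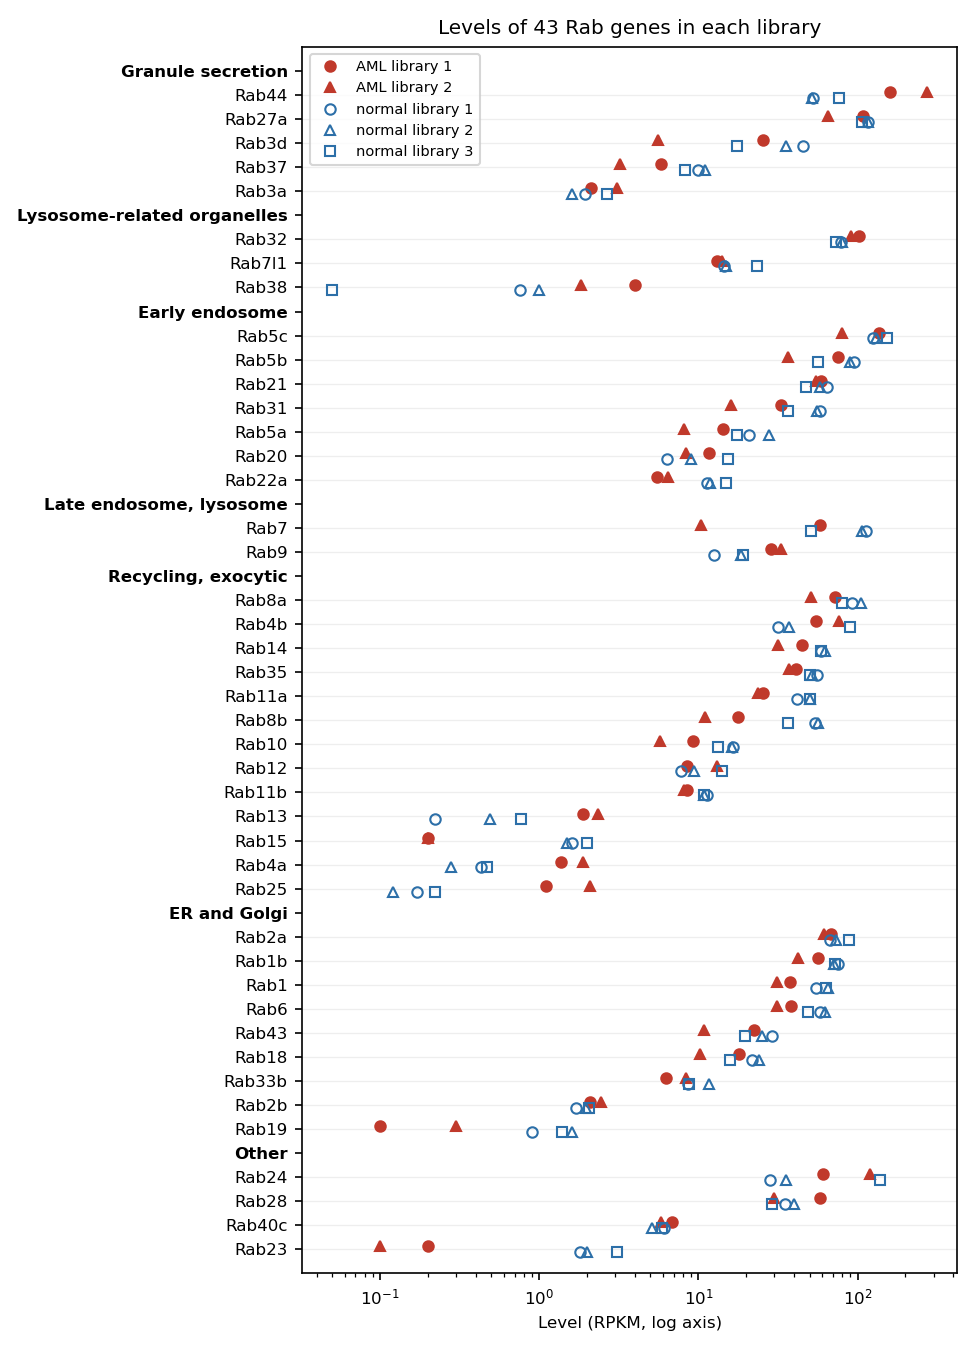
Level of each tested Rab gene (horizontal axis, RPKM, log axis) in AML libraries 1 and 2 (filled symbols) and normal libraries 1 to 3 (open symbols), 1 symbol per library. Rab44 is the gene with the highest level in AML cells (160 and 274 RPKM), and for Rab7, Rab3d and Rab24 the libraries of 1 group are far apart.

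The Rabs of lysosome-related organelles did not share a direction. Rab38, which with Rab32 brings enzymes to the melanosome, had 3.98 and 1.84 RPKM in AML cells, against 0.76, 0.99 and 0.05 RPKM in normal cells. The groups did not overlap and the difference of 1.28 ± 0.35 passed (limma adjusted p = 0.034). It did not pass without normal library 1 (limma adjusted p = 0.051), with a pseudocount of 0.1, with columns scaled to the same sum, with no filter, or with the length and GC trend removed, and with 1 AML library left out it was too low to be tested. Rab32 had 102 and 90.9 RPKM in AML cells, against 78.4, 80.0 and 73.3 RPKM in normal cells. The groups did not overlap, but the difference of 0.31 ± 0.22 did not pass (limma adjusted p = 0.31). Rab7l1, a partner of the kinase Lrrk2 also called Rab29, had 13 and 14.1 RPKM in AML cells, against 14.4, 15.0 and 23.4 RPKM in normal cells, without overlap, and did not pass.

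Of 7 tested Rabs of the early endosome, only Rab22a passed, lower in AML cells. The shares over all tested genes were 11.8% lower and 19.3% higher. Rab22a (chr2:173485261-173532844, mm9), which acts between the early and the recycling endosome, had 5.5 and 6.4 RPKM in AML cells, against 11.3, 11.8 and 14.9 RPKM in normal cells (-0.97 ± 0.23, limma adjusted p = 0.020). The groups did not overlap. It did not pass without AML library 1 (limma adjusted p = 0.10), AML library 2 (0.093) or normal library 2 (0.072), nor with the length and GC trend removed (0.073). The 3 forms of Rab5, which drive fusion of incoming vesicles with the early endosome, did not pass. Rab5a had 14.3 and 8.1 RPKM in AML cells, against 20.7, 27.9 and 17.6 RPKM in normal cells. Both AML libraries were below the normal ones, with a difference of -0.94 ± 0.32 (limma adjusted p = 0.061). Rab5a passed without normal library 3 (0.020) and under upper quartile scaling (0.039) and quantile normalization (0.032). Its exons overlap those of 4921523A10Rik on the other strand. Rab5b had 75.3 and 36.3 RPKM in AML cells, against 95.2, 89.6 and 56.3 RPKM in normal cells, with overlap (-0.57 ± 0.39, limma adjusted p = 0.29). Rab5c, the most abundant form, had 136 and 79.3 RPKM in AML cells, against 126, 130 and 153 RPKM in normal cells, also with overlap (-0.38 ± 0.30, limma adjusted p = 0.35). Rab31, which works between Golgi and endosome, had 33.0 and 16.0 RPKM in AML cells, against 57.7, 55.6 and 36.5 RPKM in normal cells. The groups did not overlap and the difference of -1.05 ± 0.37 missed the threshold (limma adjusted p = 0.068), which it met without normal library 3 (0.016) and under upper quartile scaling (0.048). Rab21, of integrin traffic, and Rab20, of maturing phagosomes, had differences of 0.01 ± 0.24 and 0.04 ± 0.37 at 47.5 to 63.9 and 6.32 to 15.3 RPKM over the 5 libraries. The sign of both turned under all 3 other scalings. Rab17 stayed at or below 0.12 RPKM in every library.

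Of the late endosome Rabs, Rab9 was higher in AML cells and Rab7 did not pass, although its estimate was the lowest of the 43. Rab9 (chrX:162895185-162917799, mm9) carries mannose 6-phosphate receptors back to the Golgi, and its promoter is printed above. It had 28.7 and 33.3 RPKM in AML cells, against 12.5, 18.5 and 19.2 RPKM in normal cells. The groups did not overlap and the difference was 0.87 ± 0.26 (limma adjusted p = 0.043). This call was close to the threshold: Rab9 did not pass without AML library 1 (0.11), AML library 2 (0.23), normal library 1 (0.14) or normal library 2 (0.10), nor under any of the 3 other scalings or with no filter (highest limma adjusted p 0.077). Rab7, which directs late endosomes to the lysosome, had 58.2 and 10.4 RPKM in AML cells, against 112, 106 and 51.1 RPKM in normal cells. AML library 2 had the lowest value of all, and AML library 1 lay above normal library 3. The difference of -1.72 ± 0.69 did not pass (limma adjusted p = 0.10). It passed without normal library 3 (-2.08, limma adjusted p = 0.026) and without AML library 1 (-2.91, 0.031), and did not without AML library 2 (-0.54, 0.55). Exons of Rab7 overlap those of Gm5577 on the other strand. Rab36, Rab34 and Rab9b were under the filter. Rab36 was listed at 0 and 0.2 RPKM in AML cells and 0.8, 0.7 and 0.9 RPKM in normal cells, and Rab9b was listed at 0 in every library.

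Of the 13 tested recycling and exocytic Rabs, the largest group tested, 3 were higher and 4 lower. Over all tested genes, 19.3% were higher and 11.8% lower. The lower Rabs of the group were Rab8b, Rab11a, Rab10 and Rab15. Rab8b (chr9:66691479-66767512, mm9), which with Rab8a carries cargo from the Golgi to the cell surface, had 17.7 and 11.0 RPKM in AML cells, against 53.8, 56.3 and 36.5 RPKM in normal cells. Every AML library lay below every normal one, 3.41-fold in the means, and the difference was -1.71 ± 0.31 (limma adjusted p = 0.0079). Rab11a (chr9:64563106-64585565, mm9), the Rab of slow recycling to the surface, had 25.3 and 23.7 RPKM in AML cells, against 41.7, 50.4 and 50.5 RPKM in normal cells (-0.92 ± 0.22, limma adjusted p = 0.022). Rab10 (chr12:3247430-3309969, mm9), known for moving glucose transporters to the surface, had 9.3 and 5.7 RPKM in AML cells, against 16.4, 16.3 and 13.3 RPKM in normal cells (-0.97 ± 0.26, limma adjusted p = 0.032). Rab11a and Rab10 did not overlap between groups, and exons of Rab10 overlap those of 1700012B15Rik on the other strand. Rab15, which slows recycling, had 0.2 and 0.2 RPKM in AML cells, against 1.6, 1.5 and 2.0 RPKM in normal cells (-1.17 ± 0.18, limma adjusted p = 0.0044). These low values were deposited with 1 decimal and are coarse.

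The 3 higher members of this group were all low. Rab25, a Rab11 relative known from epithelia, had 1.11 and 2.07 RPKM in AML cells, against 0.17, 0.12 and 0.22 RPKM in normal cells (1.12 ± 0.21, limma adjusted p = 0.0087). Rab13, known from tight junctions, had 1.88 and 2.33 RPKM in AML cells, against 0.22, 0.49 and 0.77 RPKM in normal cells (1.07 ± 0.22, limma adjusted p = 0.012). Rab4a, of fast recycling, had 1.38 and 1.89 RPKM in AML cells, against 0.43, 0.28 and 0.47 RPKM in normal cells (0.92 ± 0.18, limma adjusted p = 0.011). None of these 3 overlapped between groups, and all 3 fell under the filter when either AML library was left out. They reached 1 RPKM only in AML libraries, so the filter let them in through that group. Without AML library 2 none of Rab8b (limma adjusted p = 0.079), Rab15 (0.064), Rab11a (0.13) and Rab10 (0.22) passed. Without AML library 1, Rab11a (0.081) and Rab15 (0.050) did not pass. Without normal library 1, Rab10 did not pass (0.096), and without normal library 2, Rab10 (0.12), Rab11a (0.10) and Rab4a (0.051) did not. Rab10 also did not pass with columns scaled to the same sum or with no filter.

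The other 6 members of the group did not pass. Rab8a, Rab14, Rab35 and Rab11b were each lower in both AML libraries than in any normal one, with differences of -0.59 ± 0.27, -0.66 ± 0.24, -0.41 ± 0.22 and -0.37 ± 0.20. Rab14, which works between Golgi and endosome, had 44.6 and 31.6 RPKM in AML cells, against 58.6, 62.4 and 58.9 RPKM in normal cells. It passed under upper quartile scaling and quantile normalization (limma adjusted p 0.045 in each). Rab4b had 54.7 and 76.5 RPKM in AML cells, against 31.8, 37.3 and 90.2 RPKM in normal cells (0.43 ± 0.46, limma adjusted p = 0.49). Normal library 3 was the highest of all 5, and without it the limma adjusted p was 0.023. Rab12, of receptor degradation, had 8.5 and 13 RPKM in AML cells, against 7.8, 9.4 and 14.1 RPKM in normal cells, with no clear direction. Its sign turned under all 3 other scalings.

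Among the ER and Golgi Rabs, 8 of 9 tested had differences below 0, against 44.1% of all tested genes. Rab1 and Rab19 passed, both lower in AML cells, where 11.8% of all tested genes were lower. Rab1 (chr11:20101435-20126859, mm9), also called Rab1a, is needed for transport from the ER to the Golgi. It had 37.4 and 31.1 RPKM in AML cells, against 55, 65.3 and 63.6 RPKM in normal cells, with no overlap (-0.82 ± 0.23, limma adjusted p = 0.035). Rab19, a Golgi Rab, had 0.1 and 0.3 RPKM in AML cells, against 0.9, 1.6 and 1.4 RPKM in normal cells (-0.93 ± 0.21, limma adjusted p = 0.016). Rab1 did not pass without AML library 1 (0.083), AML library 2 (0.20), normal library 1 (0.075) or normal library 2 (0.15), nor with no filter or the length and GC trend removed (highest limma adjusted p 0.082). Rab19 did not pass without AML library 1 (0.12) or 2 (0.096), and fell under the filter without normal library 2 or 3. Rab6, also called Rab6a, which works in traffic within and back through the Golgi, had 38.1 and 31.2 RPKM in AML cells, against 57.7, 62.6 and 48.8 RPKM in normal cells. Its groups did not overlap, and the difference of -0.69 ± 0.24 missed the threshold (limma adjusted p = 0.068) but met it without normal library 3 (0.026) and under upper quartile scaling (0.039) and quantile normalization (0.045). Exons of Rab6 overlap those of Mrpl48 on the other strand. Rab1b, Rab43, Rab18, Rab33b and Rab2a had differences of -0.56, -0.60, -0.53, -0.36 and -0.22, and Rab2b had 0.16, with means of 2.25 RPKM in AML cells and 1.90 RPKM in normal cells. The 5 Golgi Rabs under the filter were Rab30, Rab33a, Rab39, Rab39b and Rab6b, at or below 0.6 RPKM in every library.

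Outside these groups, Rab23 (chr1:33776727-33799409, mm9), which restrains hedgehog signalling in mouse, had 0.2 and 0.1 RPKM in AML cells, against 1.8, 2.0 and 3.1 RPKM in normal cells. The difference was -1.5 ± 0.22 (limma adjusted p = 0.0040), with no overlap, and Rab23 missed the threshold without AML library 2 (0.060). Rab24, linked to autophagy, had 60.2 and 121 RPKM in AML cells, against 28.3, 35.5 and 139 RPKM in normal cells. Normal library 3 was the highest of all, so the groups overlapped and the difference of 0.70 ± 0.68 did not pass (limma adjusted p = 0.46). It was 1.4 (0.011) without normal library 3. Rab28 and Rab40c had differences of 0.27 ± 0.33 and 0.12 ± 0.22. Rab40b stayed at or below 0.03 RPKM.

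Several Rabs come as paralogues with overlapping roles, and their shares of the summed RPKM of a set are free of the scaling between libraries. The shares are given without a test: an exact permutation test of 2 against 3 libraries has 10 arrangements and cannot give a p under 0.05. Rab8a held 80.3% and 82.2% of it in AML cells, against 63.1%, 65.1% and 68.6% in normal cells, 15.7 points higher in the means. Rab11a held 74.9% and 74.5% of the Rab11 set in AML cells, against 78.5%, 82.4% and 82.2% in normal cells. Both sets separated AML from normal libraries. The shares of Rab4b, Rab2a, Rab32 (with Rab38) and Rab6 in their sets also did. Their differences in means were smaller, at -1.57, -0.93, -2.12 and 0.02 points. Such separation was common in levels of single genes: AML libraries lay above all normal ones for 34.8% of all tested genes and below them for 22.1%. Rab5c held 60.2% and 64.1% of the Rab5 set in AML cells, against 52.0%, 52.6% and 67.4% in normal cells, with overlap. Rab1 held 39.8% and 42.4% of its set with Rab1b in AML cells, against 42.3%, 47.9% and 46.8% in normal cells, also with overlap. Rab3d held 92.2% and 63.8% of the Rab3 set in AML cells, against 95.8%, 95.6% and 86.6% in normal cells, with Rab3a making up most of the rest. Its difference in means of -14.7 points turned on single libraries, at -28.9 points without AML library 1 and -0.48 points without AML library 2. For Rab8a the same values were 16.6 and 14.7 points. Rab27a held 99.8% to 100% of its set with Rab27b. How reads that match more than 1 paralogue were counted is not given here.

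**Figure D3:**
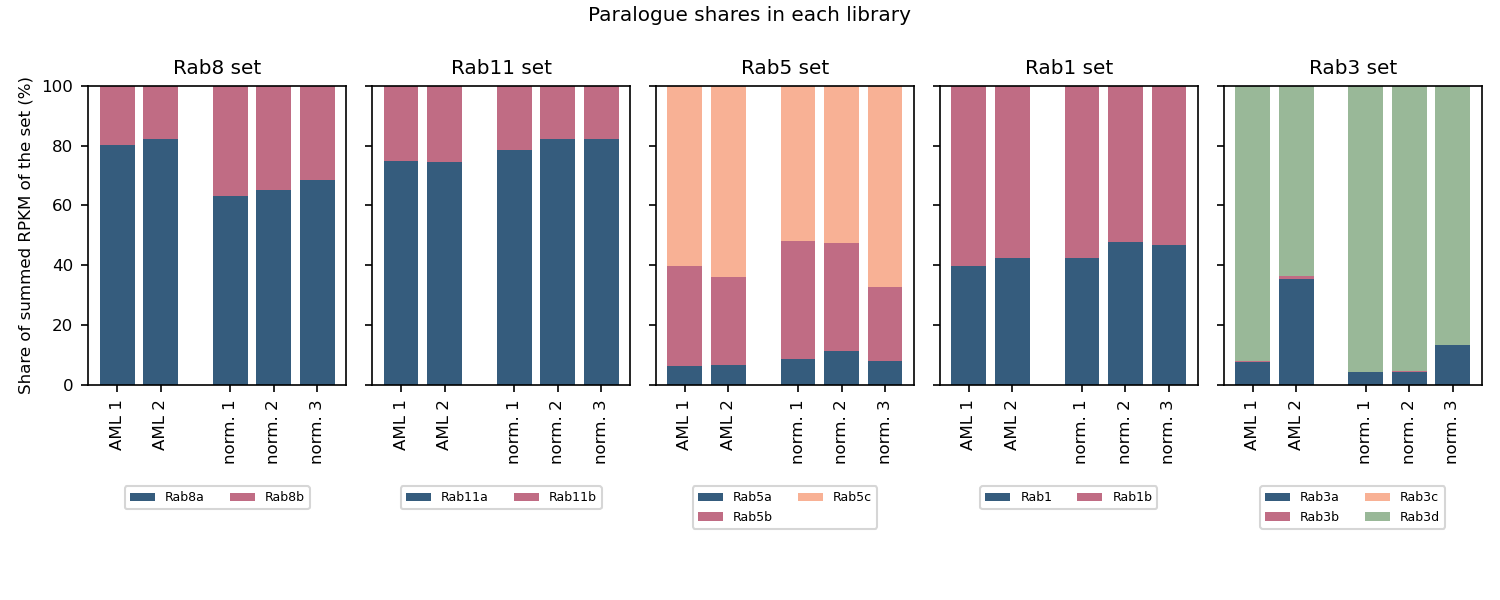
Share of each paralogue in the summed RPKM of its set (vertical axis, percent) in AML libraries 1 and 2 and normal libraries 1 to 3, 1 stacked bar per library. The Rab8a part of the Rab8 set is 80.3% and 82.2% in AML libraries and 63.1% to 68.6% in normal libraries.

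The spread inside the groups ran alike in the Rab genes. The difference between normal library 3 and the mean of normal libraries 1 and 2 was set against that between AML library 2 and AML library 1, on the log2(RPKM + 1) scale. Pearson's r across genes was 0.78 over the 43 Rab genes and 0.55 over all 10166 tested genes, and the sign was the same for 34 of 43 (79.1%) Rab genes and for 70.8% of all tested genes. Genes are not independent replicates, so no p is given. Rab7 differed by -2.38 between the AML libraries and by -1.08 between the normal ones, and Rab3d by -2.01 and -1.15. Rab24 differed by 0.99 and 2.10, and Rab4b by 0.48 and 1.36. Over the 43 Rab genes the AML minus normal difference had r = -0.55 with log2 exon length and 0.33 with GC content, where all 9934 annotated tested genes had -0.20 and 0.20. With the trend on length and GC content removed, an alternative chosen after seeing the data, 13 Rab genes passed, 12 of them shared with the 15. Of the 43, 29 were deposited with 1 decimal and 27 of these had a difference below 0, and all 14 with 2 decimals had one above 0. The same split ran through the whole table: 11.9% of the 4749 tested genes with 1 decimal and 94.5% of the 5417 with 2 decimals had a difference above 0. Rounding every value to 1 decimal left the same 15 genes past the threshold. The lower genes among them were all deposited with 1 decimal, so rounding left their values as they were. It could change only the values of the higher genes, and cannot show what the deposited rounding did to the lower ones.

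**Figure D4:**
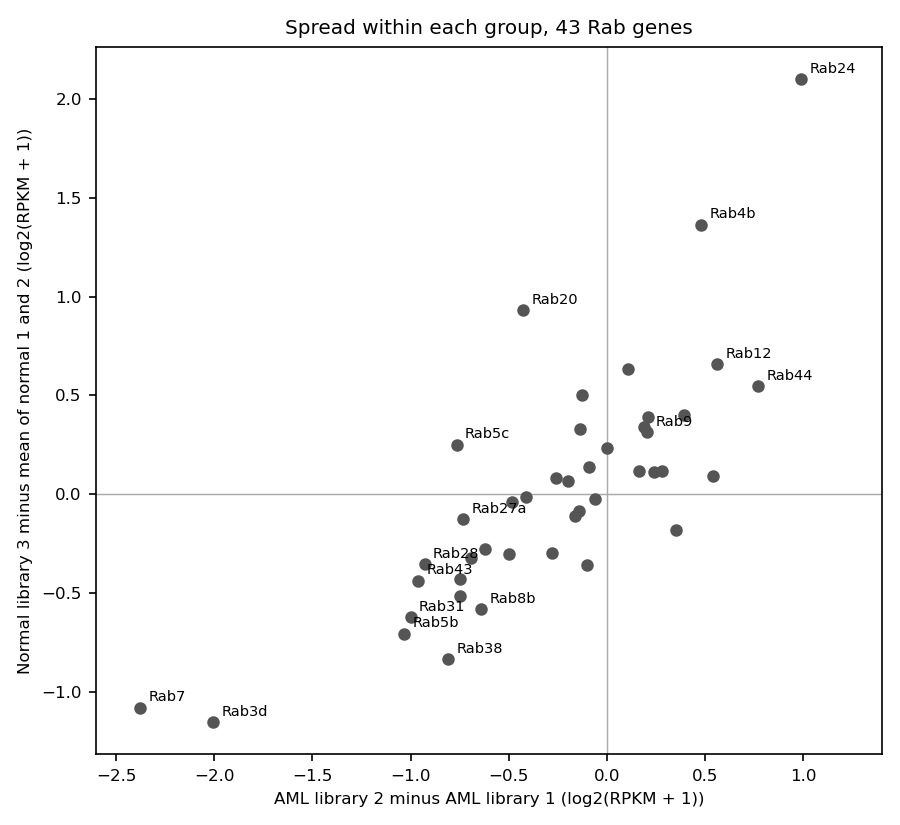
Each of the 43 tested Rab genes by its difference between AML libraries 2 and 1 (horizontal axis) and between normal library 3 and the mean of normal libraries 1 and 2 (vertical axis), both on the log2(RPKM + 1) scale. Rab7 (-2.38 and -1.08) and Rab3d (-2.01 and -1.15) lie at the lower left, and Rab24 (0.99 and 2.10) at the upper right.

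The Rab cycle and its effectors were followed in 158 genes of 7 lists, of which 131 were tested: 19 were higher and 16 lower in AML cells (26.7% called, against 31.0% of all tested genes), with a median difference of 0.02. The docking and fusion list of secretory granules had the most lower genes, 5 lower and 1 higher of 11 tested. These are 45.5% lower and 9.09% higher, against 11.8% and 19.3% of all tested genes. Sytl1, a Rab27 effector that tethers granules, had 42.9 and 60.4 RPKM in AML cells, against 16.0, 18.1 and 20.4 RPKM in normal cells (1.45 ± 0.25, limma adjusted p = 0.0069). Snap23, a fusion protein (SNARE) of the plasma membrane, had 10.4 and 5.3 RPKM in AML cells, against 50.7, 50.6 and 21.8 RPKM in normal cells, 5.23-fold lower in the means (-2.21 ± 0.44, limma adjusted p = 0.011). Stx3, another plasma membrane SNARE, had 1.0 and 0.8 RPKM in AML cells, against 6.1, 7.0 and 5.7 RPKM in normal cells (-1.93 ± 0.21, limma adjusted p = 0.0012). For all 3 genes AML and normal libraries did not overlap. The vesicle SNARE Vamp2 had 16.7 and 8.6 RPKM in AML cells, against 28.5, 51.0 and 26.1 RPKM in normal cells (-1.41 ± 0.39, limma adjusted p = 0.034). Stx11 and Vamp3, named after their values were seen, had differences of -1.09 and -1.08. The priming factor Unc13d had 49.96 and 72.4 RPKM in AML cells, against 33.2, 30.2 and 42.9 RPKM in normal cells (0.76 ± 0.28), and missed the threshold (limma adjusted p = 0.076). Its partner Stxbp2 had 141 and 164 RPKM in AML cells, against 97.4, 103 and 154 RPKM in normal cells, and did not pass. Without AML library 2 only Stx3 of the 6 passed (0.024), and the other 5 had limma adjusted p from 0.067 to 0.26. Without AML library 1, Stx11 and Vamp2 did not pass (0.075 and 0.051), without normal library 1, Vamp2 and Vamp3 (0.052 and 0.087), and without normal library 2, Stx11, Vamp2 and Vamp3 (0.064 to 0.14). Vamp2 and Vamp3 also missed the threshold with columns scaled to the same sum (0.064 and 0.080) and with no filter (0.076 and 0.080).

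**Figure D5:**
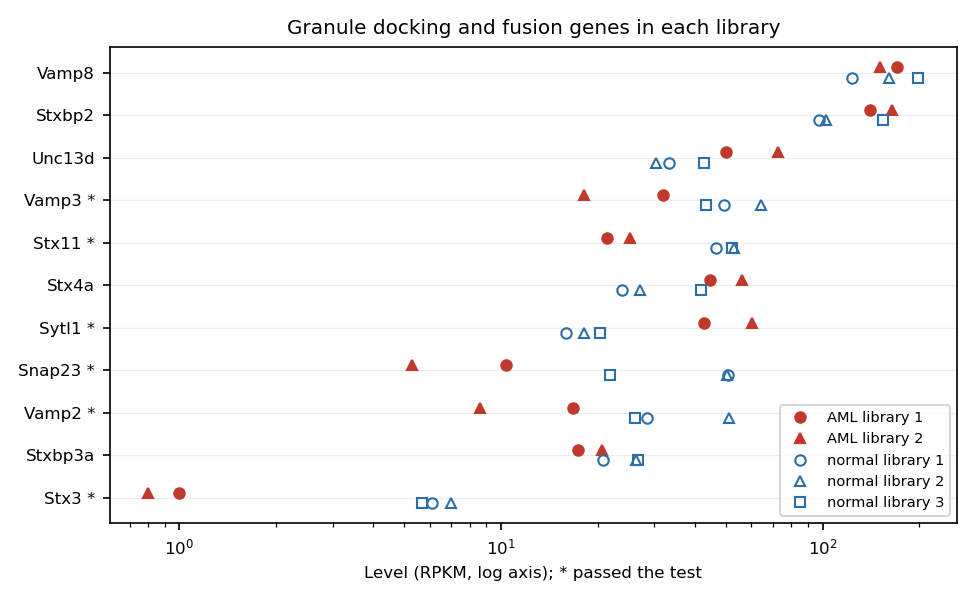
Level of each tested granule docking and fusion gene (horizontal axis, RPKM, log axis) in AML libraries 1 and 2 (filled symbols) and normal libraries 1 to 3 (open symbols); an asterisk marks genes that passed. Snap23 and Stx3 lie lower in both AML libraries (10.4 and 5.3, and 1.0 and 0.8 RPKM) than in the normal ones, and Sytl1 lies higher (42.9 and 60.4 RPKM).

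The other lists held changes in both directions. Of the tested GEF, GAP, endosome and Golgi genes, 24.1%, 25.8%, 24% and 16.7% were called, against 31.0% of all tested genes. The share was 28.6% of 7 genes for the lipid tail and membrane extraction, and 50% of 4 genes listed for Rab kinases and large Rabs. Of 29 tested GEF genes, 4 were higher and 3 lower. Rin2, a GEF of Rab5, had 0.6 and 1.1 RPKM in AML cells, against 25.1, 20.9 and 18.2 RPKM in normal cells, the largest difference of the 7 lists (-3.60 ± 0.25, limma adjusted p = 3.5e-04). Dennd5a and Fam116a (Dennd6a) were lower, with differences of -1.44 and -0.91, and Fam116b (Dennd6b), AU022870 (listed for Ccz1) and Dennd2d were higher by 0.96, 0.90 and 0.89. Of 31 GAP genes, 5 were higher and 3 lower. Tbc1d14, a protein that binds Rab11 on recycling endosomes, had 4.22 and 3.02 RPKM in AML cells, against 14.5, 15.2 and 14.5 RPKM in normal cells (-1.78 ± 0.22, limma adjusted p = 0.0021). Tbc1d23 and Evi5l were lower, with differences of -1.34 and -0.63, and Tbc1d4, Sgsm3 and Tbc1d8 were higher by 1.60, 1.28 and 1.22. Of 25 endosome effectors and tethers, 4 were higher and 2 lower. Appl2, an effector of Rab5, had 21.3 and 34.96 RPKM in AML cells, against 4.19, 4.80 and 5.89 RPKM in normal cells (2.26 ± 0.28, limma adjusted p = 0.0021). Rilpl2 and Rabep2 were higher by 1.61 and 1.26, and Rab11fip1 and Rab11fip5, effectors of Rab11, were lower, with differences of -1.71 and -0.93. Of 24 Golgi effectors and tethers, 3 were higher (Gorasp1 by 1.56, Ocrl by 1.34, Mical1 by 0.91) and Cog6 was lower (-0.80). Of 7 genes for the lipid tail and membrane extraction, Chm, which presents Rabs to the transferase, had 2.2 and 1.6 RPKM in AML cells, against 8.7, 9.1 and 5.3 RPKM in normal cells (-1.56 ± 0.28, limma adjusted p = 0.0079). Rabggtb, the beta subunit of that transferase, was higher by 1.35, and Gdi2, which extracts Rabs from membranes, had 119 and 117 RPKM in AML cells, against 140, 169 and 135 RPKM in normal cells and did not pass. Of 4 tested genes listed for Rab kinases and large Rabs, Lrrk1 was lower (-1.55) and Efcab4a higher by 0.79. Lrrk2 and Efcab4b did not pass, and whether Efcab4a acts as a large Rab was not tested. Of the 35 regulators that passed, 6 did so without any 1 library: Tbc1d14, Rin2, Appl2, Gorasp1, Ocrl and Stx3. Without AML library 2, 1 of 7 GEF genes that had passed did so, 1 of 8 GAP genes, 1 of 6 endosome genes and 2 of 4 Golgi genes. Without AML library 1 these counts were 2, 2, 4 and 2, without normal library 1 they were 3, 4, 4 and 2, and without normal library 2 they were 2, 3, 3 and 2. Without normal library 3 all of them passed. The highest limma adjusted p among them was 0.30, for Evi5l. Chm missed the threshold without AML library 2 (limma adjusted p = 0.081). Rabggtb missed it without either AML library (0.061 and 0.20) and without normal library 1 (0.063) or 2 (0.070). Lrrk1 missed it without either AML library (0.056 and 0.082), and Efcab4a fell under the filter there and missed it without normal library 1 (0.066) or 2 (0.068). Other settings also ended calls. Dennd2d and Tbc1d8 missed the threshold under upper quartile scaling (limma adjusted p 0.066 and 0.072) and quantile normalization (0.054 and 0.051), and Mical1 under the first of these (0.051). With columns scaled to the same sum, Fam116a (0.085), Tbc1d23 (0.088), Evi5l (0.080), Cog6 (0.082) and Dennd2d (0.0503) missed it. With no filter, Rabggtb, Dennd2d, Fam116a, Tbc1d8, Tbc1d23, Evi5l, Mical1 and Cog6 missed it (limma adjusted p 0.052 to 0.096). Evi5l also missed it under quantile normalization (0.070) and with neither variance trend nor robust estimation (0.064), and Fam116a (0.068) and Efcab4a (0.085) with the length and GC trend removed. Fam116b, Tbc1d4, Evi5l, Fam116a, Rab11fip5, Lrrk1 and Efcab4a were too low for the filter at 5 RPKM.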

How the data were processed

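Total RNA of sorted cells was made into TruSeq libraries, per the labels' protocols. The deposited table gives 1 value per gene and library, taken here as RPKM made by the authors and inferred from the values (library totals of 472234 to 638584 RPKM). The submitters' processing notes name mm9 as the build. Neither the aligner nor the gene models are named in the sources used here. The depth in reads is unknown, so no counting interval is given. Columns were matched to samples by title, and 16774 rows were 0 in every library. Genes that reached 1 RPKM in 2 or more libraries were compared on log2(RPKM + 1) with limma 3.58.1 in R 4.3.3 (variance trend, robust, two-sided, Benjamini-Hochberg over 10166 genes), after the code was tested on simulated data. In all, 14 alternative fits were tried. Coordinates and overlaps came from GENCODE annotation of mm9, and promoters from RefSeq on GRCm38.p6. Members and lists were chosen with earlier results of these data known. Values per library are given for members that passed and for a set list of granule, endosome and Golgi members, and for up to 3 passed genes per direction of each regulator list with Unc13d, Gdi2 and Stxbp2. Others given per library were chosen after their values were seen. The platelet marker list is not reported here.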

Additional observations from a re-analysis of the deposited data

How the results depend on the processing

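Of the values of single Rab genes under the alternatives, 502 kept their direction and side of the threshold, 44 kept the direction and no longer passed, 16 passed only under the alternative, and 21 changed sign. None of the 21 belonged to a gene that had passed. Under upper quartile scaling, columns scaled to the same sum and quantile normalization, the differences were -0.041, -0.0498 and -0.04996 for Rab12, -0.053, -0.054 and -0.037 for Rab20, and -0.089, -0.098 and -0.13 for Rab21. With the length and GC trend removed, chosen after seeing the data, they were -0.29 for Rab20, -0.043 for Rab21, -0.0059 for Rab3a and -0.058 for Rab40c. With single libraries left out, differences ranged from -0.23 to 0.33 for Rab12, from -0.23 to 0.35 for Rab20, from -0.11 to 0.10 for Rab21 and from -0.19 to 0.74 for Rab28. The cause was not tested. With single libraries left out, 0 to 8 Rab genes were higher in AML cells (6 with all libraries) and 0 to 13 lower (9 with all). Among all genes 326 to 2757 were higher and 348 to 2142 lower, and among the regulators 3 to 26 and 3 to 28. A filter at 5 RPKM left 2 higher Rab genes, since fewer low genes were tested, and 10 regulators were lower with columns scaled to the same sum. The AML minus normal share differed between left-out libraries from -1.36 to -0.50 points for Rab2a, from -28.9 to -0.48 for Rab3d and from -3.01 to -1.23 for Rab32. The median difference of all tested genes was 0.12, and 0.03, 0.02 and 0.04 under the 3 other scalings, where that of the Rab genes was -0.51, -0.52 and -0.56. When 1 AML library is left out, the other is assumed to vary like the normal ones. No paired analysis was possible because the labels give no replicate numbers, and those used here only name the libraries. Low members, such as Rab15, Rab19 and Rab23, rest on values rounded to 1 decimal, and with no read counts the smallest detectable level is unknown.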
